A study of Mus musculus with 12 samples.

Results

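The 10 genes described here encode enzymes and regulators of the breakdown of leucine, isoleucine and valine, the branched-chain amino acids. They were chosen by symbol (Bcat2, Bckdha, Bckdhb, Dbt, Bckdk, Ppm1k, Ivd, Mccc1, Mccc2 and Hibch), and every probe that carried one of these symbols in the scanner files was taken. This gave 23 of the 56605 probes on the array and 10 of its 37074 gene names. Of the 23 probes, 22 passed the filter on dim signal, and each of the 10 genes kept at least 1 probe. None of the 10 genes passed the test in any comparison of diabetic with non-diabetic hearts, or of hearts with and without pargyline.

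The samples were heart muscle from 12 male C57BL6/J mice aged 5 months, each profiled for messenger RNA with 1 single-color Agilent array, and there were 3 mice per group. Control mice (C) received neither agent. Diabetic mice (D) had received streptozotocin, a toxin of pancreatic β-cells that leaves the animals short of insulin, at 50 mg/kg/day on 5 days from an age of 6 to 7 weeks, and counted as diabetic at a blood glucose of 17 mM or more. Pargyline, an inhibitor of monoamine oxidase, was injected at 50 mg/kg/day for 12 weeks into mice without streptozotocin (C+P) and into diabetic mice (D+P). Per the paper, the mice without pargyline received vehicle. All mice were of the same strain and sex, and the labels name no engineered allele. The RNA came from bulk heart tissue, so that fewer cells of a type and less RNA per cell cannot be told apart in these values.

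In this pathway, the 3 amino acids first lose their amino group to the mitochondrial transaminase encoded by Bcat2. The resulting keto acids are then decarboxylated by the branched-chain keto acid dehydrogenase complex, which commits the carbon skeletons to breakdown. A kinase (Bckdk) switches this complex off by phosphorylation and a phosphatase (Ppm1k) switches it on again. The leucine skeleton passes on through isovaleryl-CoA dehydrogenase (Ivd) and methylcrotonyl-CoA carboxylase (Mccc1, Mccc2), and the valine skeleton through 3-hydroxyisobutyryl-CoA hydrolase (Hibch). The heart is a tissue with high activity of this pathway, and raised branched-chain amino acids in blood are a known feature of insulin deficiency.

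The probes are 60 bases long, and several results below differ between probes of 1 gene, so stretches of 30 bases are shown for most of the probes concerned. Positions in the genome are those in the files, in the mm9 build, and the files do not say whether a probe lies in a coding part or in an untranslated part. A pair of Ppm1k probes is shown first, because the brighter of them shares sequence with probes of other genes. Capitals mark the 20 bases that this probe has in common with the largest number of such probes, 11 of them, and the stretch shown covers its bases 11 to 40. For the other probes listed, bases 1 to 30 are shown, without capitals, since no run of 20 bases was shared with a probe of another gene.
Ppm1k A_55_P1968606 (chr6:57458598-57458657, minus strand): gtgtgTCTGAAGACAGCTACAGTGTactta
Ppm1k A_51_P265219 (chr6:57456890-57456949, minus strand): ttcattatgagaatggcttaagcaggaata
Bcat2 A_55_P1960167 (chr7:52844940-52844999, plus strand): tcctggtgttcaagggagaaccttggcttc
Bcat2 A_52_P393781 (chr7:52831204-52831263, plus strand): acagaagaagccagcccctagccaggcact
Mccc1 A_55_P1953899 (chr3:35858790-35858849, minus strand): ctagatctcggagagaggagctttattaaa
Hibch A_51_P178735 (chr1:52977535-52977594, plus strand): actccagtcttcatcagaaatggtttgttg
Hibch A_55_P2714539 (chr1:52905330-52905389, plus strand): tttagataaagaaggctagctaactctgta

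In all, the brightest Ppm1k probe shared a run of 20 bases with 19 probes that carry the names of other genes. Of all 56605 probes, 4.03% shared such a run with any probe of another gene and 0.528% with 5 or more, while none of the other 22 member probes did. The accessions that the files list for this probe belong, by RefSeq names, to 3 genes, Ppm1k, Synrg and Golm2. Its signal therefore cannot be assigned to Ppm1k alone, and Ppm1k is described below by all 3 of its probes.

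Signals are given as log2 of the scanner signal after quantile normalization between the arrays, a scale on which 1 unit is a doubling. Changes are differences of group means on this scale, from a limma fit over all 30859 probes that passed the filter. A probe was called at a Benjamini-Hochberg adjusted p of at most 0.05 over these probes. Where a gene had several probes, the brightest 1 was used for counts over genes. Between 23556 and 29231 of the 59305 spots per array were well above background, fewest on D replicate 1, and no spot was saturated. The mice without pargyline shared 1 slide and those with pargyline another, so that slide and pargyline cannot be told apart wherever mice with and without pargyline are compared. On each slide the non-diabetic mice lay in row 1 and the diabetic mice in row 2, and row and diabetes cannot be told apart either. The precision is limited by having only 3 arrays in each group.

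**Figure D1:**
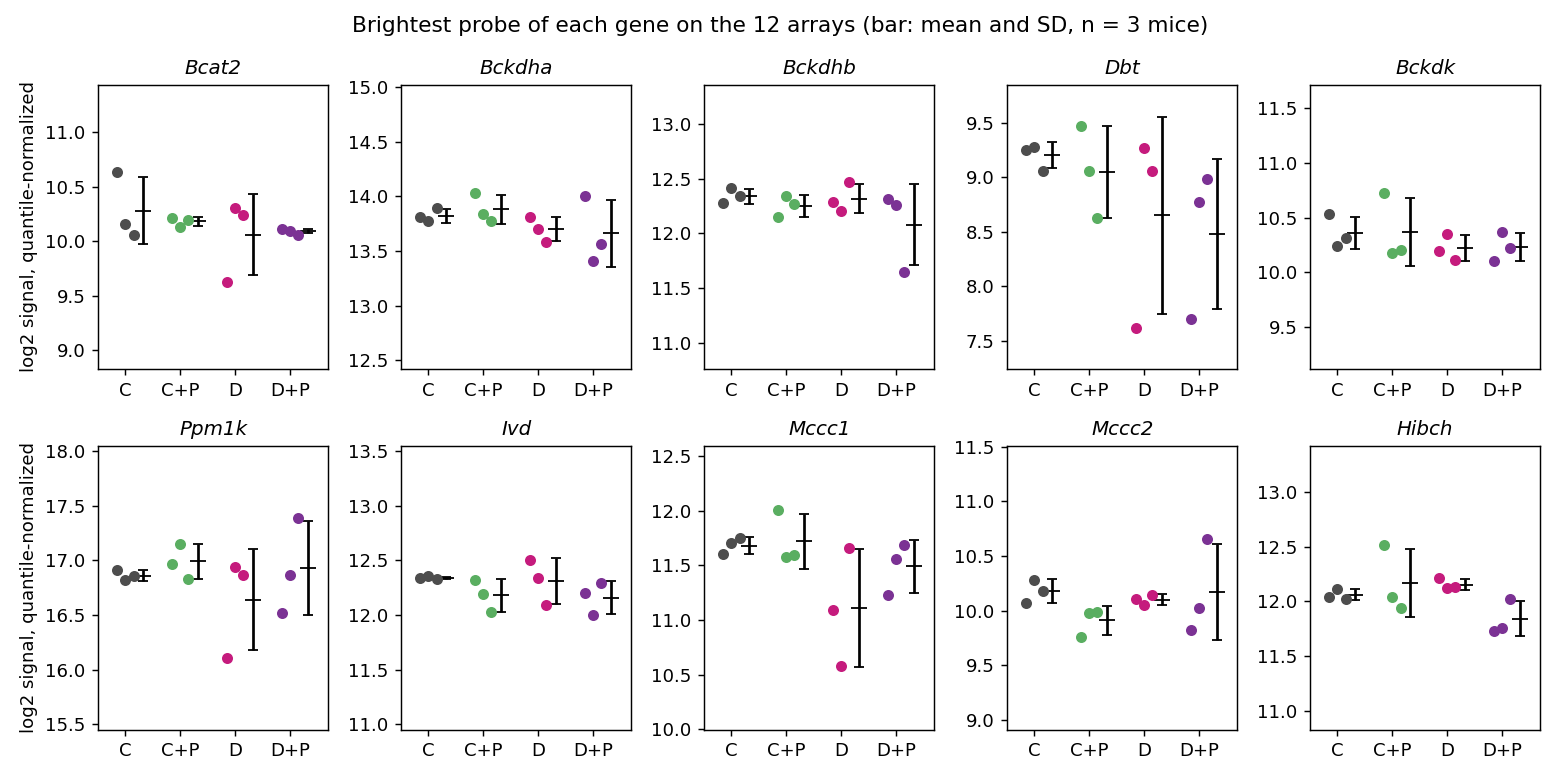
Log2 signal of the brightest probe of each of the 10 genes on the 12 arrays, by group (points, 1 per mouse; bars, mean and SD, n = 3 mice). Every panel spans the same range of log2 units, and the groups overlap for most genes, with the low D replicate 1 and D+P replicate 1 of Dbt (7.62 and 7.70) standing apart.

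Bcat2 encodes the mitochondrial transaminase of the first step. Its brightest probe, A_55_P1960167, gave 10.63, 10.16 and 10.06 in C, 10.21, 10.13 and 10.19 in C+P, 9.63, 10.30 and 10.24 in D, and 10.11, 10.09 and 10.06 in D+P. The groups C and D overlapped, with the lowest value on D replicate 1, while the D+P arrays lay just under the C+P arrays. The change was -0.22 in D versus C (SE 0.21, adjusted p 0.695) and -0.09 in D+P versus C+P (SE 0.21, adjusted p 0.94). Without D replicate 1 the change in D versus C was -0.01. Averaged over pargyline, the 95% confidence interval ran from -0.48 to 0.17, or from 0.716-fold to 1.12-fold.

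The second Bcat2 probe, A_52_P393781, spread far more over the same 12 hearts. Its values ranged over 4.82 log2 units, against 1.00 for the brightest probe, from 5.65 on D replicate 1 to 10.46 on D+P replicate 2. In D it read 5.65, 8.36 and 8.62, all under the C values of 8.73, 8.79 and 9.51, a change of -1.47 (SE 0.77, adjusted p 0.506). In D+P it read 9.94, 10.46 and 8.60, spanning the C+P values of 8.62, 9.81 and 10.29. The change in D+P versus D was 2.13 (SE 0.77, adjusted p 0.284), while the brightest probe gave 0.03 for the same comparison. Without D replicate 1 the differences of means of A_52_P393781 were -0.52 in D versus C and 1.18 in D+P versus D.

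The branched-chain keto acid dehydrogenase complex was represented by the genes of its E1 alpha subunit (Bckdha), E1 beta subunit (Bckdhb) and E2 core (Dbt). Bckdha had 1 probe, A_51_P466148 (chr7:26415094-26415153), which read between 13.41 on D+P replicate 2 and 14.03 on C+P replicate 1. Its group means were 13.82 ± 0.06 for C, 13.88 ± 0.13 for C+P, 13.70 ± 0.11 for D and 13.66 ± 0.31 for D+P (SD, n = 3). The groups overlapped in each comparison, and the change averaged over pargyline was -0.17, with a confidence interval from -0.44 to 0.10. Under scaling to the 75th percentile of each array, the change in D versus C was 0.07 in place of -0.13.

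Both Bckdhb probes read nearly alike across the groups. The brightest, A_55_P2115235 (chr9:84017787-84017846), had means of 12.34 ± 0.07 for C, 12.25 ± 0.10 for C+P, 12.32 ± 0.13 for D and 12.08 ± 0.37 for D+P (SD, n = 3). The D+P mean rested on replicate 3 at 11.65, next to 12.32 and 12.26 on the other 2 arrays, and without that array the change in D+P versus C+P was 0.04 in place of -0.18. The second probe, A_51_P102782, differed by 0.38 log2 units over all 12 arrays, the narrowest range of the 22 tested probes. Its change averaged over pargyline was 0.00, with a confidence interval from -0.22 to 0.22.

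Dbt, measured by A_52_P569348 (chr3:116252015-116252074), showed the largest change averaged over pargyline among the brightest probes of the 10 genes. It read 9.25, 9.28 and 9.06 in C, 9.47, 9.06 and 8.63 in C+P, 7.62, 9.27 and 9.06 in D, and 7.70, 8.77 and 8.98 in D+P. In each diabetic group 1 array was low and the other 2 lay within or near the range of the non-diabetic hearts. The change was -0.55 in D versus C (SE 0.44, adjusted p 0.653) and -0.57 in D+P versus C+P (SE 0.44, adjusted p 0.802). Without D replicate 1 and D+P replicate 1 the values were -0.03 and -0.17, an alternative chosen after the data were seen.

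Bckdk, the kinase that inactivates the complex, had 1 probe, A_51_P404413 (chr7:135051800-135051859). Its means were 10.36 ± 0.15 for C, 10.37 ± 0.31 for C+P, 10.22 ± 0.12 for D and 10.23 ± 0.13 for D+P (SD, n = 3). All values lay between 10.10 and 10.73 and the groups overlapped. The change was -0.14 both in D versus C and in D+P versus C+P, with a confidence interval from -0.42 to 0.14 for the average of the 2, and the adjusted p of that average was 0.706. The value in D+P versus C+P rested on C+P replicate 1, which read 10.73 next to 10.18 and 10.20, and without that array it was 0.04.

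For Ppm1k, the phosphatase that activates the complex, the brightest probe ran against the others in several comparisons. A_51_P265219 and A_66_P133398 were both higher in D than in C and lower in D+P than in D. The brightest probe, A_55_P1968606, had the opposite sign in both. It gave -0.22 in D versus C (SE 0.26, adjusted p 0.763) and -0.06 in D+P versus C+P (SE 0.26, adjusted p 0.97). The probe A_51_P265219, which lists no other gene, read 8.55, 9.17 and 9.12 in C and 9.89, 9.82 and 9.61 in D. All 3 D arrays lay above all 3 C arrays, and the change of 0.82, a 1.77-fold difference, had an SE of 0.37 and an adjusted p of 0.462. In C+P it read 8.50, 8.56 and 8.58, and in D+P 9.14, 9.47 and 7.75, so that 2 of 3 D+P arrays were higher than the C+P arrays and 1 was lower. Averaged over pargyline the change was 0.53, with a confidence interval from -0.05 to 1.11. Permuting the labels within each slide gave a two-sided exact permutation p of 0.12 over 400 arrangements, of which the smallest possible p is 0.005.

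The dimmer probe A_66_P133398 differed mainly between the diabetic groups. It read 6.64, 6.60 and 6.45 in D against 5.33, 6.29 and 5.65 in D+P, with no overlap, a change of -0.81 (SE 0.24, adjusted p 0.226). In C and C+P its means were 6.30 ± 0.15 and 6.35 ± 0.29 (SD, n = 3). Its change was 0.27 in D versus C (SE 0.24, adjusted p 0.688) and -0.60 in D+P versus C+P (SE 0.24, adjusted p 0.633). The interaction, the diabetes effect in pargyline-treated mice minus that in mice without pargyline, was -0.86 (SE 0.34, adjusted p 0.692). The probe A_51_P265219 also read lower in D+P than in D, by -0.99 (SE 0.37, adjusted p 0.295). A large part of this rested on D+P replicate 3, at 7.75 next to 9.14 and 9.47 on the other D+P arrays. The brightest probe, which shares sequence with other genes, gave 0.29 for that comparison. Slide and pargyline coincide in D+P versus D.

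Ivd, which oxidizes the leucine-derived isovaleryl-CoA, was the steadiest of the 10 genes by its brightest probe. A_51_P425680 (chr2:118706998-118707057) read between 12.00 and 12.50 on the 12 arrays. Its change was -0.03 in D versus C and -0.02 in D+P versus C+P, and the confidence interval of the average ran from -0.27 to 0.22, or from 0.828-fold to 1.16-fold. The probe A_66_P105102 gave -0.01 for that average. A_65_P11840 gave -0.37 (SE 0.22, adjusted p 0.567), with D+P replicate 1 at 9.62 and the other 11 arrays between 10.54 and 11.31.

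Mccc1 and Mccc2 encode the alpha and beta subunits of methylcrotonyl-CoA carboxylase, which acts after Ivd in leucine breakdown. The brightest Mccc1 probe, A_55_P1953899, read 11.60, 11.70 and 11.75 in C, 12.01, 11.58 and 11.59 in C+P, 11.09, 10.58 and 11.66 in D, and 11.23, 11.56 and 11.69 in D+P. In D, 2 of 3 arrays lay under every C array and the third lay among them. The change in D versus C was -0.57, a 0.673-fold difference, with an SE of 0.26, an unadjusted p of 0.0491 and an adjusted p of 0.462 in the limma fit. In D+P versus C+P it was -0.23 (SE 0.26, adjusted p 0.859). This rested largely on C+P replicate 1, at 12.01 next to 11.58 and 11.59, and on D+P replicate 1, at 11.23 next to 11.56 and 11.69. Averaged values below include both arrays. Averaged over pargyline it was -0.40, with an adjusted p of 0.44 and an exact permutation p within slides of 0.08 (two-sided).

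The size of the Mccc1 change in D versus C depended on which D arrays counted. It was -0.31 when D replicate 2 was left out and -0.85 when D replicate 3 was. With array weights estimated by restricted maximum likelihood, added after the data were seen, it was -0.98 with an adjusted p of 0.0129, a setting under which 9.51% of all tested probes were called in this comparison. These weights were 3.66 for D replicate 2 and 0.202 for D replicate 1, and limma warned that their estimation had not reached its convergence tolerance, so they and the values resting on them are provisional. Of the other 2 Mccc1 probes, A_55_P2716461 gave -0.33 in D versus C and -0.04 averaged over pargyline. A_66_P133854 gave 0.36 in D versus C and 0.37 averaged over pargyline (SE 0.25, adjusted p 0.602), in the opposite direction to the brightest probe.

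Mccc2 was the 1 gene of 10 whose brightest probe had an average change over pargyline above 0, at 0.09 (confidence interval from -0.23 to 0.41). A_55_P1953894 (chr13:100718508-100718567) had means of 10.18 ± 0.11 for C, 9.91 ± 0.13 for C+P, 10.10 ± 0.05 for D and 10.17 ± 0.44 for D+P (SD, n = 3). The change in D+P versus C+P was 0.25, of which 1 array decided most, since without D+P replicate 3 it was 0.01, and the average over pargyline was then -0.04. The second probe, A_52_P683136, gave 0.16 averaged over pargyline (SE 0.18, adjusted p 0.759). The third, A_55_P2042550, was well above background on no array and was not tested.

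Hibch, the hydrolase of valine breakdown, had 4 tested probes, the largest number among the 10 genes. The brightest, A_51_P178735, read 12.04, 12.11 and 12.02 in C and 12.21, 12.12 and 12.13 in D, with all D arrays above all C arrays by a change of only 0.09 (SE 0.17, adjusted p 0.86). In C+P it read 12.52, 12.04 and 11.94, and in D+P 11.73, 11.76 and 12.02, a change of -0.33 (SE 0.17, adjusted p 0.696) that was -0.15 without C+P replicate 1. The interaction was -0.42 (SE 0.24, adjusted p 0.741), so the opposite signs in the 2 comparisons were not called as different.

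The Hibch probe A_55_P2714539 had the lowest adjusted p of the 22 probes. It read 5.67, 6.33 and 6.44 in C, 6.08, 6.36 and 6.50 in C+P, 5.32, 5.49 and 4.88 in D, and 5.53, 5.76 and 6.17 in D+P. The D arrays lay below the C arrays without overlap, a change of -0.92 (SE 0.26, adjusted p 0.315), and the D+P arrays overlapped the C+P arrays, with a change of -0.49 (SE 0.26, adjusted p 0.698). Averaged over pargyline the change was -0.70 (SE 0.18), with an adjusted p of 0.208. The probe carries the accession ENSMUST00000186922, unlike the brightest probe with NM_146108, and was well above background on 9 of 12 arrays.

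The remaining 2 Hibch probes were low on the same pair of arrays. A_51_P191274 read 4.41 on D replicate 1 and 4.36 on D+P replicate 1, and between 6.04 and 7.02 on the other 10 arrays. A_55_P2599891 read 6.28 and 5.52 on these 2 arrays, and 6.90 or more elsewhere. Their changes averaged over pargyline were -0.90 (SE 0.43, adjusted p 0.465) and -0.23 (SE 0.44, adjusted p 0.865).

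**Figure D2:**
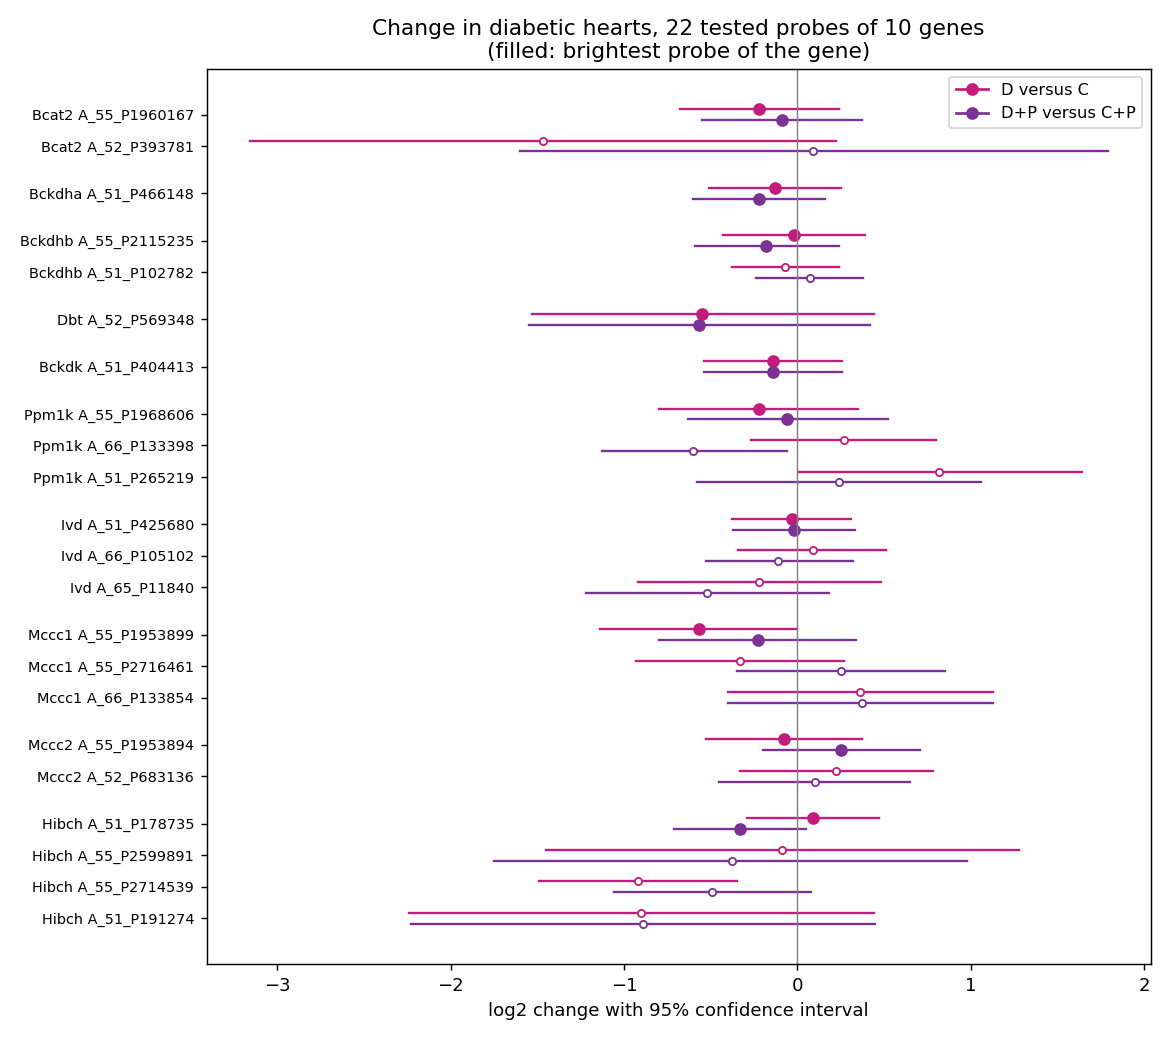
Log2 change with its 95% confidence interval for the 22 tested probes of the 10 genes, in D versus C and in D+P versus C+P (filled points, brightest probe of the gene). The intervals that leave out 0 are those of Hibch A_55_P2714539 (-0.92), Ppm1k A_51_P265219 (0.82) and Mccc1 A_55_P1953899 (-0.57) in D versus C and of Ppm1k A_66_P133398 (-0.60) in D+P versus C+P, and none of them passed the adjusted threshold.

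Across the 10 genes, the brightest probe read lower in D than in C for 9 and lower under diabetes with pargyline (D+P versus C+P) for 9. The exceptions were Hibch (0.09) and Mccc2 (0.25). The median change was -0.13 in D versus C and -0.16 in D+P versus C+P, and ranged from -0.57 to 0.09 and from -0.57 to 0.25. Over all 30859 tested probes the medians were -0.01 and 0.01, with 51.1% and 49.0% of probes lower. Over all 22 member probes, 16 and 15 were lower. The count of 9 lower genes in D versus C was 6 under 75th percentile scaling and 7 under either set of array weights. With Ppm1k taken from A_51_P265219 it was 8 in both comparisons, and without D replicate 1 and D+P replicate 1 it was 8 in both, with medians of -0.06 and -0.10. Without the control array C+P replicate 1, 7 genes were lower in D+P versus C+P, with a median of -0.08.

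None of the 10 genes was called in D versus C (0.00648% of all tested probes were), in D+P versus C+P (0.0454%) or in diabetes averaged over pargyline (0.107%). At an unadjusted p under 0.05 in limma, 3 of the 22 member probes stood out in D versus C, 1 higher and 2 lower, where 10.8% of all tested probes did. The corresponding counts were 1 of 22 against 7.46% in D+P versus C+P and 1 of 22 against 11.4% in the average. Groups that did not overlap were seen for 5 of 22 member probes in D versus C and 1 of 22 in D+P versus C+P, beside 22.3% and 13.9% of all tested probes. The member shares were near or below the background in these comparisons.

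Pargyline was compared with its absence in both metabolic states. In C+P versus C, none of the 10 genes was called (0.0324% of all tested probes), no member probe had an unadjusted p under 0.05 in limma (4.43%), and 2 of 22 had groups that did not overlap (15.4%). The medians of the brightest probes were -0.04 in C+P versus C and -0.01 in D+P versus D, with 5 of 10 lower in each. With Ppm1k taken from A_51_P265219, 6 of 10 were lower in each and both medians were near -0.10. In D+P versus D, none of the 10 genes was called, as was none of all tested probes (0%), while 4 of 22 member probes had an unadjusted p under 0.05, 2 higher and 2 lower (13.3%). Groups did not overlap for 4 of 22 (17%). The 4 probes with the unadjusted p were those already described for Bcat2 (A_52_P393781, higher), Hibch (A_55_P2714539, higher by 0.59) and Ppm1k (A_66_P133398 and A_51_P265219, lower).

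The interaction asked whether diabetes acted differently in the presence of pargyline, and a slide effect common to all arrays of a slide cancels in it. None of the 10 genes was called (0.00648%), and 1 of 22 member probes, Ppm1k A_66_P133398, had an unadjusted p under 0.05 in limma, beside 7.03% of all tested probes. The interaction of the brightest probes ranged from -0.42 for Hibch to 0.34 for Mccc1, with a median of 0.01. The confidence intervals were wide: for Bckdk, with an interaction of 0.00, the interval ran from -0.56 to 0.57.

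**Figure D3:**
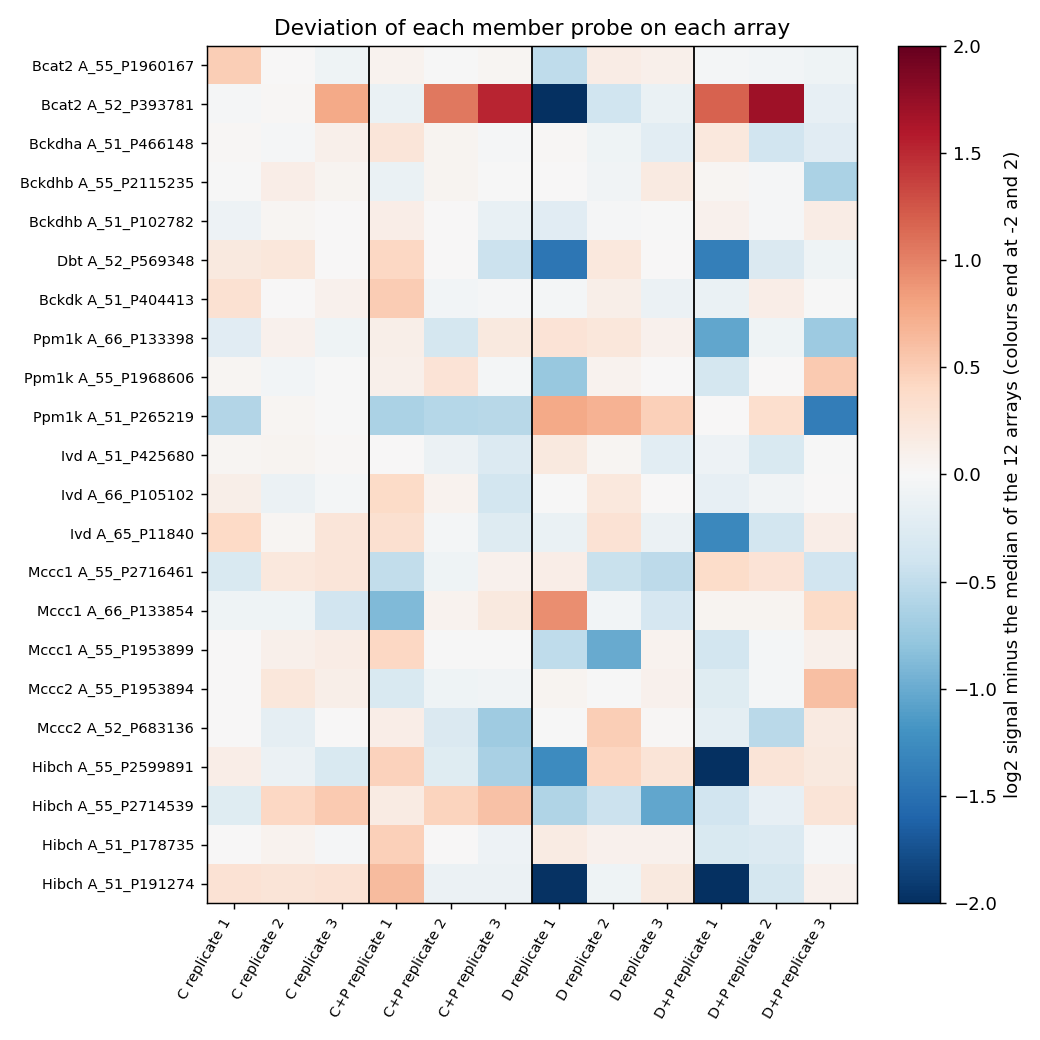
Deviation of the log2 signal of each of the 22 tested member probes from its median over the 12 arrays (rows, probes; columns, arrays by group). Deep blue cells lie on D replicate 1 and D+P replicate 1, in Dbt, Hibch and, on D replicate 1, Bcat2 A_52_P393781, and also on D+P replicate 3 in Ppm1k A_51_P265219 (7.75).

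On a pair of arrays the member probes read low on average. D replicate 1 was the lowest of the 12 arrays for 5 of 22 member probes and D+P replicate 1 for 6, where they were lowest for 18.2% and 11.3% of all tested probes. The mean deviation of the member probes was -0.31 and -0.32 on these arrays, against -0.04 and -0.03 over all tested probes. Both arrays lay in column 1 of their slide. For D replicate 1 the share of member probes lowest there was near the background. It was at the same time the highest array for Ppm1k A_66_P133398 and A_51_P265219, Ivd A_51_P425680 and Mccc1 A_66_P133854. The array C+P replicate 1, also in column 1, had the highest mean deviation of the members, 0.14. No member gene was called without both low arrays or with slide column as a block. Array quality weights were lowest for D replicate 1 by either way of estimating them, 0.242 gene by gene and 0.202 by restricted maximum likelihood, and only the latter called a member gene, Mccc1.

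The other genes of the pathway were taken as 26 genes in 7 groups, and all of them had a tested probe. None was called in D versus C, in D+P versus C+P or in their average, and their median change averaged over pargyline was 0.01, with 12 of 26 lower. The groups were transporters (4 genes), the cytosolic transaminase and the shared E3 subunit (2), later steps of leucine (4), isoleucine (4) and valine breakdown (4), the propionyl-CoA branch (6) and regulators (2). By group, the medians ranged from -0.16 for the later leucine steps to 0.18 for the regulators.

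Abat had the largest change averaged over pargyline among these 26 genes. It encodes the transaminase of the transmitter GABA, which also acts in valine breakdown. Its brightest probe, A_55_P2015495 (chr16:8621576-8621635), read 9.06, 9.70 and 9.35 in C, 10.16, 9.74 and 9.52 in C+P, 8.82, 8.83 and 8.95 in D, and 8.65, 7.93 and 8.11 in D+P. Both diabetic groups lay below their controls without overlap. The change was -0.50 in D versus C (SE 0.24, adjusted p 0.474) and -1.58 in D+P versus C+P (SE 0.24, adjusted p 0.0816). The latter adjusted p was under 0.05 in 5 of 26 alternatives, among them the stricter filter on dim probes (0.0294) and leaving out D+P replicate 1 (0.0359), and ranged from 0.00684 to 1.

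Averaged over pargyline the Abat change was -1.04 (SE 0.17), a 0.486-fold difference, with an adjusted p of 0.0581, just short of the threshold. Over 24 alternatives the change ranged from -1.15 to -0.95 and the adjusted p from 0.00279 to 0.188, where the lowest value came from the weights that had not converged and the next was 0.0155 with gene-by-gene array weights. It was under 0.05 in 7 of them, among them the stricter filter on dim probes (0.0161) and leaving out D+P replicate 1 (0.0261). The interaction was -1.08 (SE 0.34, adjusted p 0.639). The second tested Abat probe, A_55_P2714404, did not share the direction without pargyline, with 0.61 in D versus C (SE 0.47, adjusted p 0.636) and -1.15 in D+P versus C+P (SE 0.47, adjusted p 0.638).

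**Figure D4:**
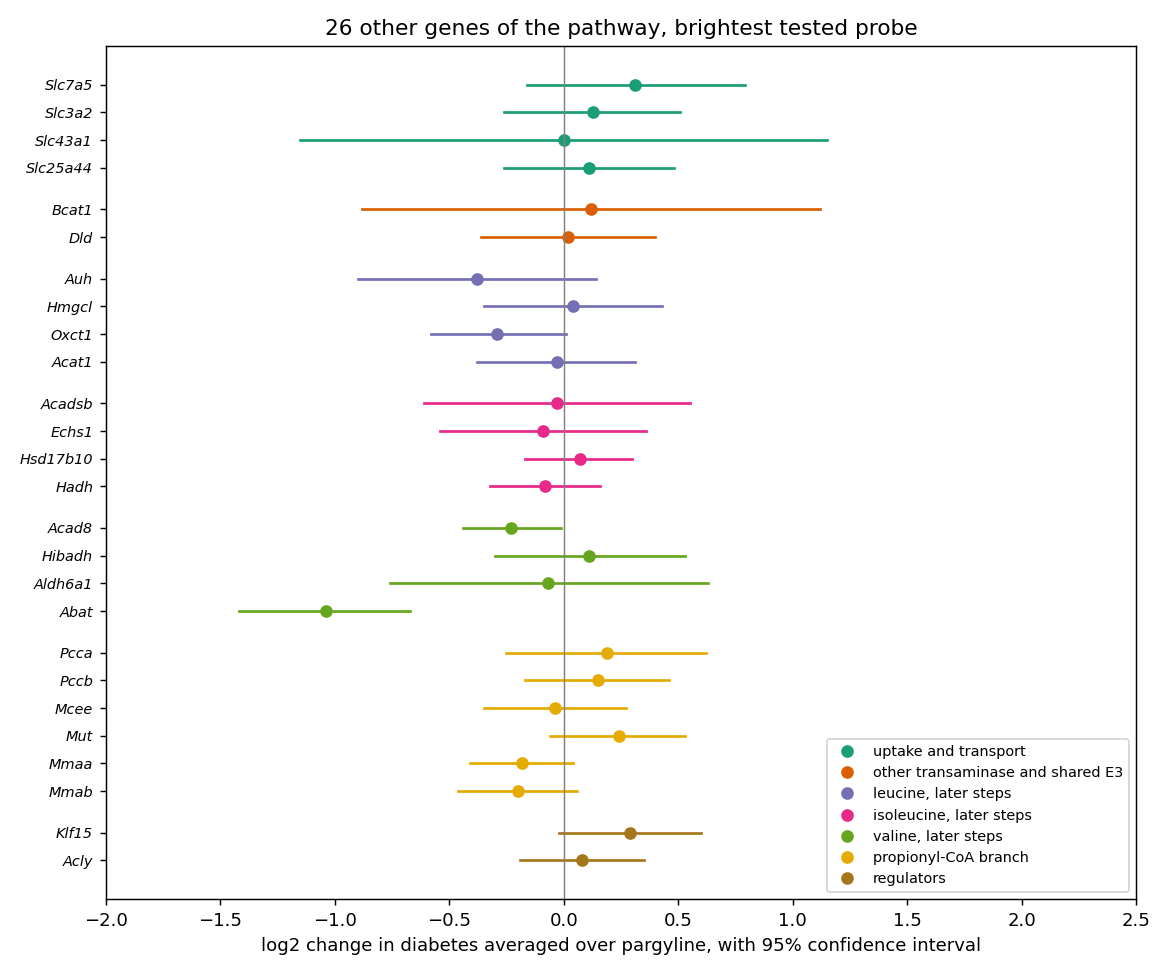
Log2 change in diabetes averaged over pargyline, with its 95% confidence interval, for the brightest probe of 26 other genes of the pathway, colored by group. Abat (-1.04) lies farthest from 0, and beside it only the interval of Acad8 (-0.23) leaves out 0.

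The next largest changes averaged over pargyline among these genes were small and none passed the test. Auh, a hydratase of leucine breakdown, gave -0.38 (adjusted p 0.569), with its lowest value, 10.85, on D replicate 1. Oxct1, which activates ketone bodies and so handles an end product of leucine, gave -0.29 (adjusted p 0.449). Slc7a5, a subunit of the cell-surface transporter of large neutral amino acids, gave 0.31 (adjusted p 0.614) from a dim probe that was well above background on 5 of 12 arrays. Its change was 0.60 in D versus C (adjusted p 0.498), with the highest value, 6.34, on D replicate 1, and 0.02 in D+P versus C+P (adjusted p 0.99). Klf15, a transcription factor known to raise genes of this pathway, gave 0.29 (adjusted p 0.474). Mut, methylmalonyl-CoA mutase, gave 0.24 (adjusted p 0.534), from 0.46 in D versus C (adjusted p 0.431) and 0.01 in D+P versus C+P (adjusted p 0.991). It read 12.04, 11.43 and 11.42 in D, above the C values of 11.24, 11.13 and 11.13. In D versus C, 22.3% of all tested probes had groups that did not overlap. Acad8, which oxidizes isobutyryl-CoA from valine and was picked after its values were seen, gave -0.23 with an unadjusted p of 0.039 and an adjusted p of 0.413 in limma.

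Mitochondrial content and cell makeup were read beside these values. The 10 genes of general mitochondrial content were all well above background on 12 arrays, with a median change of -0.01 averaged over pargyline and log2 summed signals of 18.59 to 18.61 for C, 18.50 to 18.67 for C+P, 18.20 to 18.68 for D and 18.57 to 18.70 for D+P. On D replicate 1, 4 of these 10 genes (Cs, Uqcrc2, Atp5b and Hspd1) had their lowest value. So did 3 of 8 cardiomyocyte markers (Tnni3, Ryr2 and Mb), while 18.2% of all tested probes were lowest there. Vdac1, Sdha, Cox4i1 and the cardiomyocyte marker Pln had their highest value on that array. On D+P replicate 1, 0 of the 10 genes and 1 of the 8 markers had their lowest value, beside 11.3% of all tested probes. The 8 cardiomyocyte markers were well above background on all 12 arrays, with summed signals, set mainly by the brightest of them, from 19.62 to 19.69 for C, 19.54 to 19.79 for C+P, 19.42 to 19.76 for D and 19.53 to 19.73 for D+P. Of these 8, 4 were lower in diabetes averaged over pargyline, and Ryr2, the calcium release channel of cardiomyocytes, was lower without overlap both in D versus C (-1.12, adjusted p 0.306) and in D+P versus C+P (-0.85, adjusted p 0.559).

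The other cell types were read in the same way. Summed immune markers, with 5 of 6 tested, read 12.89 to 13.16 for C, 12.81 to 12.95 for C+P, 12.50 to 12.80 for D and 12.42 to 12.81 for D+P, lower in D than in C without overlap. These sums were set mainly by the bright Ptprc and Csf1r. Of the 5 genes, 4 were lower in D versus C, 1 of them without overlap, and Cd3e was higher (0.15). The lowest adjusted p among them was 0.533. The 6 fibroblast markers read 15.46 to 15.63 for C, 15.41 to 15.47 for C+P, 15.57 to 15.65 for D and 15.53 to 15.76 for D+P. The D+P sums lay above the C+P sums without overlap, carried by the bright Dcn (0.24), while 4 of the 6 fibroblast genes were lower and the median change was -0.03. The 5 endothelial markers read 13.43 to 13.73 for C, 13.39 to 13.85 for C+P, 13.32 to 13.57 for D and 13.68 to 14.00 for D+P, and D+P lay above D without overlap, with all 5 genes higher (Kdr by 0.75, adjusted p 0.176).

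Of the 6 adipocyte markers, Adipoq, Cidec and Plin1 were well above background on no array and Lep on all 12, and the 4 tested genes gave sums of 7.54 to 7.93 for C, 7.47 to 8.18 for C+P, 7.83 to 8.76 for D and 7.31 to 8.01 for D+P. Of the 3 brown adipocyte markers, Ucp1 and Elovl3 were well above background on no array. Cidea was on all 12, and it was higher without overlap in D versus C (0.34, adjusted p 0.441) and in D+P versus C+P (0.23, adjusted p 0.754). Of 6 skeletal muscle markers 5 were tested, with sums of 13.29 to 13.50 for C, 13.29 to 14.10 for C+P, 12.86 to 13.72 for D and 12.75 to 13.23 for D+P, and D+P lay below C+P without overlap, with Acta1, which the heart also expresses, at -1.60 (adjusted p 0.352). Of the 5 genes 3 were lower there, while Myh4 (0.34) and Mylpf (0.37) were higher. Of 3 atrial markers 2 were tested, with sums of 7.91 to 8.42 for C, 8.21 to 8.57 for C+P, 7.95 to 8.30 for D and 7.63 to 8.24 for D+P, and Myl7, well above background on 4 arrays, had an interaction of -1.98 (adjusted p 0.595). Of 4 erythroid markers 3 were tested, and their sums overlapped between the groups, at 16.95 to 17.14 for C, 16.79 to 17.32 for C+P, 17.02 to 17.23 for D and 16.99 to 17.05 for D+P. No marker gene of these lists was called in diabetes averaged over pargyline, and the part of these markers in the member values was not tested. Marker genes named here were chosen after their values were seen.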

How the data were processed

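The deposited scanner files hold linear spot intensity, which the authors obtained with Feature Extraction (version 12.0.0.7 per the file headers) after background subtraction; it was not normalized between arrays. The deposited series table holds intensity that the authors had quantile normalized, and served as an alternative. Here, log2 intensity was quantile normalized over 12 arrays without control spots, outlier-flagged spots were set to missing before that, and spots that repeat 1 probe were averaged. A probe was tested if the scanner marked it positive and significant on 50% or more of each group's arrays. limma 3.58.1 in R 4.3.3 (lmFit, eBayes, 1 mean per group) gave two-sided tests, adjusted by Benjamini-Hochberg over 30859 probes at 0.05. Residual degrees of freedom were 8. The fit was tested on simulated data. The members and gene lists were chosen with earlier results of these data known. The text names every member, and of the other pathway genes those called, otherwise the 6 with the largest change averaged over pargyline. Gene names of accessions come from RefSeq (GRCm38.p6), used for names only. The data.table package (1.17.8) read the files, and figures used Python 3.11.15, pandas 2.3.3 and matplotlib 3.10.9. Replicate numbers were taken from the labels. The alternatives tried covered scaling, background correction, filters, array weights, slide and column blocks, the methods' t-test and leaving out arrays. Sequence is shown for some of the 23 member probes, and that of the others is not reported here.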

Additional observations from a re-analysis of the deposited data

How the results depend on the processing

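The count of 0 called member genes held in 155 of 157 recomputations over the 6 comparisons, among them every fit without 1 array (lowest 0, highest 0). The exceptions were array weights by restricted maximum likelihood, with 1 called gene, Mccc1, in D versus C and 1 in diabetes averaged over pargyline (-0.52, adjusted p 0.0433), from weights whose estimation had not converged, where 7.31% of all tested probes were called. The Hibch probe A_55_P2714539 was the other member probe called there. Of 820 recomputed gene changes, 794 moved by less than the spread within groups, 24 moved by more without being called, and the 2 called were those of Mccc1; 7 of the moved ones came from normexp background correction (Hibch averaged over pargyline -0.32) and 10 from the mean of all probes of a gene (Bcat2 in D versus C -0.85). Replicate numbers showed no clear pairing of the arrays. After removal of the group means, the correlation of same-numbered arrays of different groups ran from -0.20 to 0.20. It was above 0.1 in 4 of 18 pairs, and 5 of 12 arrays correlated best with an array of their own number. With the replicate block 0 member genes were called. Over all probes it gave 0, 8, 4, 6, 0 and 0 calls in place of 2, 14, 33, 10, 0 and 2, in the order D versus C, D+P versus C+P, their average, C+P versus C, D+P versus D, interaction. Array weights gave 279, 39, 348, 206, 0 and 4, and by restricted maximum likelihood 2936, 396, 2256, 2259, 70 and 73; the cause was not tested. The methods' t-test called 0 member genes and 0, 1, 1 and 1 probes in the 4 pairwise comparisons, with either adjustment. A random slide block was not run, since slide is a sum of group terms in these comparisons.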
